A study of Mus musculus with 8 samples.

Results

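Regulated exocytosis is the release of vesicle contents by fusion of the vesicle with the plasma membrane. Expression of 97 genes of this machinery was measured in mouse preSC cells, a cultured model of precancerous neuroendocrine lung cells, after the Max gene had been targeted. MAX is the DNA-binding partner of the MYC proteins and of several repressors. The genes were chosen by symbol from the 23284 genes counted, as the synaptotagmins and DOC2 proteins, synaptotagmin-like proteins, syntaxins, SNAP-25 and its relatives, VAMPs, syntaxin-binding proteins, complexins, SV2 proteins, synapsins, synaptophysin, RIM, UNC13 and CADPS proteins, and every symbol that begins with Rab3. That last pattern also takes in 12 genes of Rab30 to Rab39b, which are not Rab3 proteins and act mostly in other membrane traffic, so they are described apart.

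There were 4 Max knockout libraries (MaxKO) and 4 control libraries (Ctrl), each from a polyclonal population transduced with a Max-targeting or a control sgRNA, selected with puromycin, expanded, and given no further treatment. All 8 came from cells with a Chga-GFP reporter and lox alleles of Rb, p53 and p130 on a 129/SvJ; C57BL/6 background. The populations were not cloned, and the share of edited Max alleles was not measured here. The labels do not call the replicates separate cultures, so p-values reflect only library-to-library spread, possibly a technical one. From 14952291 to 19480947 reads fell in genes in the MaxKO libraries and from 13711278 to 19804949 in Ctrl, so 1 read was worth 0.0505 to 0.0729 CPM (the usual read count scaled to library size). Sets of 4 values below are libraries 1 to 4 in order, and errors are SD with n = 4 unless given as SE. Max itself was at 42.3, 42.3, 59.1 and 68.0 CPM in MaxKO and 65.5, 70.2, 75.2 and 61.9 CPM in Ctrl (log2 fold change -0.37, SE 0.15, adjusted p = 0.0955). That difference did not pass the threshold, and counts per gene do not show edited alleles.

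The 4 controls were less alike than the 4 knockouts. Across genes, Pearson's r of log2 CPM was 0.993 to 0.995 between MaxKO libraries, 0.995 between Ctrl 1 and Ctrl 2, and 0.973 to 0.983 for every pair with Ctrl 3 or Ctrl 4. Values below against Ctrl 1 and 2 alone or Ctrl 3 and 4 alone use a split chosen by this likeness. They are not separate support for a change. Reads outside exons made up 20.5% to 21.5% of the total in MaxKO, 18.5% and 18.6% in Ctrl 1 and 2, and 23.3% and 23.4% in Ctrl 3 and 4, and their part in the differences between the control pairs was not tested. Neuroendocrine markers summed over 10 genes to 7302.5 to 7882 CPM in MaxKO and 6772 to 8747 CPM in Ctrl, and of 9 tested 1 rose (Uchl1, log2 fold change 0.41, adjusted p = 0.0496) and 2 fell (Chgb, -0.37, adjusted p = 0.00183, and Resp18, -0.53, adjusted p = 0.0463). For Uchl1, Ctrl 3 at 745 CPM lay inside the MaxKO range of 680 to 819 CPM. Resp18 was called in 2 of the 8 fits that left out 1 library. Against Ctrl 3 and 4 alone its log2 fold change was -0.13 (edgeR adjusted p = 0.339). Chga was at 393 to 474 CPM in MaxKO and 456 to 471 CPM in Ctrl, while Neurod1 was at 0 to 0.154 CPM in MaxKO and 0.116 to 2.41 CPM in Ctrl. Calca was at 517 to 581 CPM in MaxKO, at 1986 and 1802 CPM in Ctrl 1 and 2, and at 397 and 483 CPM in Ctrl 3 and 4. Markers of neurons, which use the same release machinery, summed over 13 genes to 560.3 to 642 CPM in MaxKO and 714 to 1201 CPM in Ctrl, with Ctrl 3 the highest; 4 of 11 tested neuronal markers fell, none rose, and Nefl was at or near 0 throughout. Fibroblast markers (10 genes) summed to 48.6 to 65.1 CPM in MaxKO and 25.2 to 45.3 CPM in Ctrl, nearly all of it Dcn, and Lum was at 0. Of 2 tested, Dcn rose (log2 fold change 0.77, edgeR adjusted p = 0.0124) and Pdgfra fell (-2.37, adjusted p = 0.00423). Endothelial markers (8 genes) summed to 588 to 696 CPM in MaxKO and 257 to 427 CPM in Ctrl, nearly all of it Vwf, and Emcn was at 0. Of 2 tested, Vwf rose (log2 fold change 0.81, edgeR adjusted p = 0.00150) and Pecam1 did not pass (-0.35, adjusted p = 0.466). Haematopoietic markers (9 genes, Fcgr3 at 0) summed to at most 5.98 CPM and markers of other lung epithelium (10 genes, Krt5 at 0) to at most 14.5 CPM in any library. Of 4 tested markers of other lung epithelium, Hopx rose (log2 fold change 0.71, edgeR adjusted p = 0.0458) and none fell. The part of these marker differences in the results below was not tested.

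In neuroendocrine cells, calcium entry triggers the fusion of dense-core granules and small vesicles. A vesicle SNARE such as VAMP2 zips up with the target SNAREs syntaxin 1 and SNAP-25, guided by syntaxin-binding and UNC13 proteins, while synaptotagmins sense calcium, complexins hold the complex ready and RAB3 with the RIM proteins brings vesicles to the membrane. Synaptophysin, a vesicle membrane protein, is a standard marker of neuroendocrine lung tumours.

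Of the 83 members with enough reads to be tested, 14 were higher and 15 lower in MaxKO, and 54 did not pass the threshold (edgeR quasi-likelihood test, Benjamini-Hochberg adjusted p under 0.05 over all 13358 tested genes). The rises included Snap25 and Vamp2, which encode 2 of the core fusion proteins, the calcium sensor gene Syt5, the RIM genes Rims1 and Rims3, and Rab3d. The falls included the synaptotagmin genes Syt11 and Syt3, the complexin gene Cplx1, Rims4 and Rab3a. Synaptophysin and syntaxin 1A transcripts did not pass the threshold in either direction. The share called was 34.9% of the members (16.9% higher and 18.1% lower) against 23.1% of all tested genes (10.9% higher and 12.2% lower). Without the other Rab genes, 14 of 73 members were higher and 8 lower (19.2% and 11%, beside the 10.9% and 12.2% of all tested genes). The median log2 fold change was 0.00 over the members and 0.00 over all tested genes. For the falls of Syt3, Syt11, Doc2a, Cplx1, Rab33a and Rab34, Ctrl 3 was the highest control, as it was for the summed neuronal markers, whose part in them was not tested. In bulk RNA, fewer cells of a type and less RNA per cell cannot be told apart.

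These counts moved with the libraries used and with the scaling. With upper-quartile scaling, 10 members were higher and 19 lower, and 1160 genes were higher and 1965 lower over all genes, in place of 1457 and 1627. The number of higher members was 7 without MaxKO 1 or Ctrl 2, 8 without MaxKO 2 or MaxKO 3, 9 without MaxKO 4 and 27 without Ctrl 4, while 11 to 18 were lower in the 8 such fits. The direction split also differed by level. Of the 64 members that averaged 10 CPM or more, 12 were higher and 8 lower (18.8% and 12.5%, against 12.3% and 9.51% of all genes at that level). Of the 19 members under 10 CPM, 2 were higher and 7 lower (10.5% and 36.8%, against 6.49% and 20.4% of all genes at that level). For 32 of the 83 members (38.6%) the 4 MaxKO values did not overlap the 4 Ctrl values, against 26.4% of all tested genes.

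**Figure D1:**
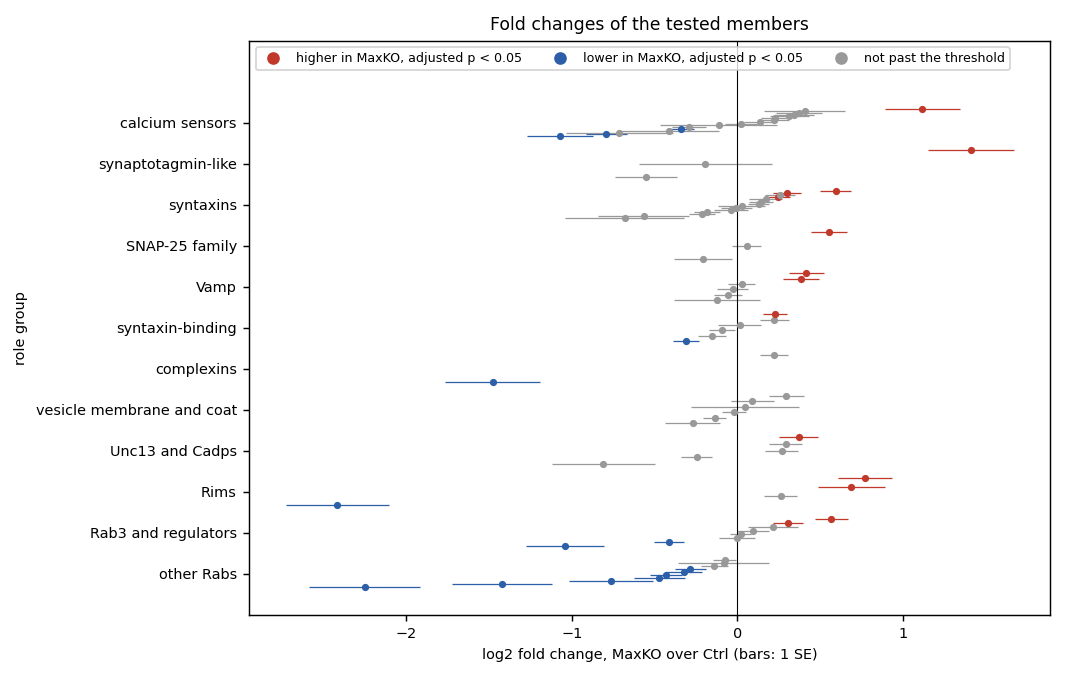
Log2 fold change of each of the 83 tested members, MaxKO over Ctrl, by role group, with bars of 1 SE; red and blue mark members past the threshold. Of the 12 groups, 4 hold both rises and falls, the other Rab genes hold 7 falls and no rise, and the vesicle membrane group holds neither.

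MAX dimers bind the DNA sequence CACGTG, the E-box, so the members' promoters were searched for it on both strands, which read the same. The promoters, 250 bases before to 50 after a start site, were those of RefSeq on GRCm38.p6, and 72 of the 97 members were matched. The E-box was found in 4 of 10 matched members that were higher, 1 of 10 that were lower and 4 of 41 that did not pass the threshold. Over all tested genes that were matched it was found in 11.7%, with 16.4% of those that were higher, 10.5% of those that were lower and 11.2% of those that did not pass. A gene was counted if any of its promoters held the motif. Counted per promoter, it was found in 7.15% of all 32851 promoters, a share that cannot be set beside those per gene. The 4 higher members were Rab3gap2, Stx6, Stxbp2 and Unc13b, and all of their calls ended with upper-quartile scaling. They were called in 3, 2, 2 and 1 of the 8 fits that left out 1 library. A match is a description and not a binding site. The windows upstream of the start site in the 4 higher members, and the first window of the lower member Rab3il1 for contrast, show how differently the motif is placed, with the E-box in capitals. They are Rab3gap2 (chr1:185203975-185204034, plus strand), Stx6 (chr1:155158591-155158650, plus strand), Stxbp2 (chr8:3631068-3631108, plus strand), Unc13b (chr4:43058703-43058752, plus strand) and Rab3il1 (chr19:10018125-10018184, plus strand).
Rab3gap2: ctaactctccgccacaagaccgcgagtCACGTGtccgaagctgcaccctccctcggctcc
Stx6: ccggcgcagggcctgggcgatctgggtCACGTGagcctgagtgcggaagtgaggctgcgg
Stxbp2: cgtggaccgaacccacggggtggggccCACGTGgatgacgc
Unc13b: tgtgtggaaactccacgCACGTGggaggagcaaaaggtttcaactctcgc
Rab3il1: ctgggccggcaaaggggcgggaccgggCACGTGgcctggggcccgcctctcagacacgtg
The motif starts 166, 85, 14 and 233 bases upstream of the start site in the first 4 genes. Rab3il1 holds a second E-box 27 bases further on, seen in lower case at the end of its window.

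The synaptotagmin and DOC2 genes were the largest group, with 1 of 16 tested genes higher and 3 lower. Beside this count and those of the smaller groups below stand the shares over all tested genes, 10.9% higher and 12.2% lower. They are grouped here as calcium sensors by symbol, although not all of them bind calcium. Syt5, a calcium-binding synaptotagmin, was at 77.9, 68.2, 62.0 and 62.0 CPM in MaxKO and 22.2, 20.2, 38.0 and 44.4 CPM in Ctrl. All 4 MaxKO values lay above all 4 controls, and Ctrl 1 and 2 were the lowest. The rise (log2 fold change 1.12, SE 0.22, adjusted p = 0.00490) was 1.67 on the log2 scale against Ctrl 1 and 2 alone and 0.70 against Ctrl 3 and 4 alone. Syt11, a synaptotagmin that does not bind calcium, was at 141, 127, 139.6 and 126 CPM in MaxKO and 196, 208, 301 and 219.8 CPM in Ctrl (log2 fold change -0.79, SE 0.12, adjusted p = 0.000903). Every MaxKO library lay below every control, and Ctrl 3 was the highest. Syt3, a calcium-binding synaptotagmin expressed at a low level here, fell in the same way, at 1.67, 1.66, 1.76 and 1.53 CPM in MaxKO and 2.77, 3.31, 4.25 and 3.70 CPM in Ctrl (log2 fold change -1.07, SE 0.20, adjusted p = 0.00246). Doc2a, a calcium sensor of spontaneous and late release, was at 19.3, 18.5, 19.3 and 20.1 CPM in MaxKO and 22.6, 24.9, 26.2 and 24.5 CPM in Ctrl (log2 fold change -0.34, SE 0.08, adjusted p = 0.0111).

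Syt7 and Syt1, the highest sensors per kilobase in MaxKO, did not pass the threshold. Syt1, the fast calcium sensor of synaptic release, was at 268, 284, 275 and 243 CPM in MaxKO and 249, 232, 161 and 202 CPM in Ctrl. The groups overlapped, with MaxKO 4 below Ctrl 1, and the difference did not pass the threshold (log2 fold change 0.34, SE 0.12, adjusted p = 0.0582). It passed in DESeq2 (adjusted p = 0.0310) and against Ctrl 3 and 4 alone (0.55, adjusted p = 0.00342), and was 0.15 against Ctrl 1 and 2 alone. Syt7, a slow, high-affinity sensor, was at 426, 429, 428 and 452 CPM in MaxKO and 355, 330.0, 366 and 441 CPM in Ctrl (log2 fold change 0.22, SE 0.09, adjusted p = 0.114). Ctrl 4 lay inside the MaxKO range, and against Ctrl 1 and 2 alone the difference passed (0.34, adjusted p = 0.000595). The other 10 tested sensors that did not pass ranged from -0.71 (Syt4) to 0.41 (Syt14) on the log2 scale. Per kilobase of merged exon, Syt7 and Syt1 were in MaxKO at 60.3 ± 1.67 and 55.4 ± 3.63 CPM per kb, followed by Syt5 at 38.6 ± 4.28. In Ctrl, Syt7, Syt11 and Syt1 led at 51.9 ± 6.67, 44.8 ± 9.24 and 43.7 ± 7.97 CPM per kb, values that did not differ beyond their spread, and Syt5 stood at 17.8 ± 6.77. Syt5 made up 13.4% ± 1.37 of the sensors' summed per-kilobase level in MaxKO and 6.79% ± 2.03 in Ctrl, whereas Syt11 made up 9.01% ± 0.562 in MaxKO and 17.4% ± 3.41 in Ctrl.

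Of the synaptotagmin-like genes, whose products bind RAB27 on secretory granules, 1 of 3 tested was higher. Sytl2 was at 5.69, 5.97, 5.01 and 4.59 CPM in MaxKO and 1.46, 1.44, 1.76 and 3.31 CPM in Ctrl (log2 fold change 1.41, SE 0.26, adjusted p = 0.00250). No control reached the lowest MaxKO library, and Ctrl 4 was nearest. Sytl1 (-0.55, adjusted p = 0.0546) and Sytl5 (-0.19, adjusted p = 0.775) did not pass the threshold. Sytl1 was at 2.09, 2.19, 1.96 and 2.49 CPM in MaxKO and 3.93, 2.95, 2.85 and 3.03 CPM in Ctrl, without overlap.

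**Figure D2:**
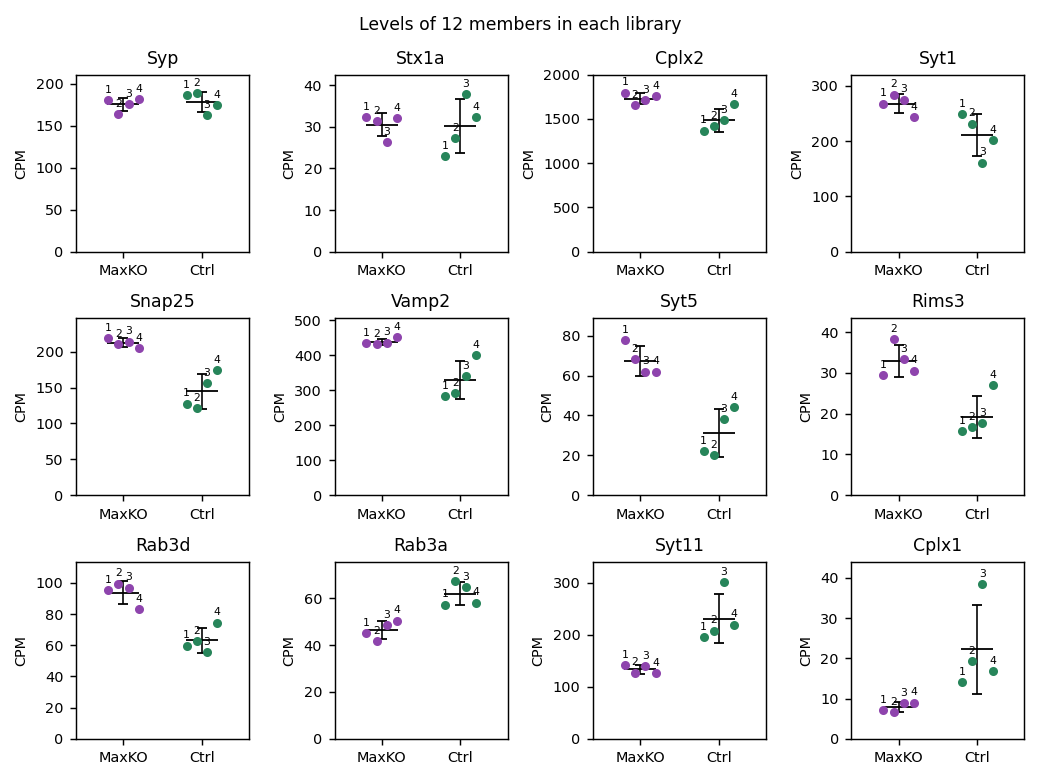
Level in CPM of 12 members in each library, with points numbered by library and black bars for the mean and SD of 4 libraries. Syp, Stx1a, Cplx2 and Syt1 overlap between MaxKO and Ctrl, while the other 8 genes do not, and Ctrl 4 is the control nearest to MaxKO for Snap25, Vamp2, Syt5, Rims3 and Rab3d.

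Among the target SNAREs, Snap25 was higher and the neuronal syntaxin gene was not. Snap25 was at 219, 211, 214 and 204 CPM in MaxKO and 128, 121, 156 and 174 CPM in Ctrl (log2 fold change 0.55, SE 0.11, adjusted p = 0.00334). The groups did not overlap, and the rise was 0.77 against Ctrl 1 and 2 alone and 0.35 against Ctrl 3 and 4 alone. Snap23, its relative outside the nervous system, was at 9.86, 13.7, 11.7 and 9.19 CPM in MaxKO and 15.2, 15.5, 10.6 and 9.93 CPM in Ctrl and did not pass the threshold (-0.21, adjusted p = 0.441), though it did against Ctrl 1 and 2 alone (-0.47, adjusted p = 0.00868). Snap29, a SNARE of autophagosome and endosome fusion, was at 27.9 ± 0.837 CPM in MaxKO and 26.9 ± 2.84 CPM in Ctrl (0.05, adjusted p = 0.711). Snap25 made up 88.7% ± 0.761 of the per-kilobase level of these 3 genes in MaxKO and 83.5% ± 4.20 in Ctrl.

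Stx1a, the neuronal syntaxin of the fusion complex, was at 32.3, 31.4, 26.3 and 32.2 CPM in MaxKO and 22.9, 27.2, 37.9 and 32.3 CPM in Ctrl (log2 fold change 0.03, SE 0.14, adjusted p = 0.919). Ctrl 1 lay below the MaxKO values and Ctrl 3 above them. The difference was 0.29 against Ctrl 1 and 2 alone (adjusted p = 0.0306) and -0.20 against Ctrl 3 and 4 alone (adjusted p = 0.238). Of the 14 tested syntaxins, 3 were higher and none lower. Stx16, a SNARE of the trans-Golgi network and the most abundant syntaxin transcript both in CPM and per kilobase, was at 442, 475, 427 and 454 CPM in MaxKO and 272, 259, 319 and 343 CPM in Ctrl (log2 fold change 0.59, SE 0.10, adjusted p = 0.00118), and the groups did not overlap. Stx3, a plasma membrane syntaxin of polarised and secretory cells, was at 52.8, 54.5, 50.1 and 48.0 CPM in MaxKO and 44.2, 39.0, 37.7 and 45.9 CPM in Ctrl (log2 fold change 0.30, SE 0.09, adjusted p = 0.0259). Stx6, a partner of syntaxin 16 at the trans-Golgi network, was at 58.2, 56.3, 57.5 and 58.8 CPM in MaxKO and 47.7, 48.7, 46.2 and 52.2 CPM in Ctrl (log2 fold change 0.25, SE 0.07, adjusted p = 0.0250). Neither overlapped between groups, but these 2 changes were small. The other 10 syntaxins that did not pass, beside Stx1a, lay between -0.68 (Stx11) and 0.26 (Stx4a) on the log2 scale.

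On the vesicle side, 2 of 6 tested VAMP genes were higher and none lower. Vamp2, or synaptobrevin 2, was at 435, 433, 437 and 452 CPM in MaxKO and 284, 291, 342 and 399.8 CPM in Ctrl (log2 fold change 0.42, SE 0.11, adjusted p = 0.0140). MaxKO values were nearly constant, and Ctrl 4 came closest to them. The difference was 0.61 against Ctrl 1 and 2 alone and 0.24 against Ctrl 3 and 4 alone (adjusted p = 0.101). Vamp8, a SNARE of endosomes and of granules in several secretory cells, was at 55.9, 42.2, 49.3 and 42.7 CPM in MaxKO and 32.1, 36.6, 36.7 and 40.5 CPM in Ctrl (log2 fold change 0.38, SE 0.11, adjusted p = 0.0230), also without overlap. Vamp1, Vamp3, Vamp4 and Vamp5 lay between -0.12 and 0.03 on the log2 scale. Vamp2 made up 73.2% ± 1.93 of the VAMP per-kilobase level in MaxKO and 68.9% ± 3.07 in Ctrl.

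The syntaxin-binding genes had 1 rise and 1 fall among 6 tested. Stxbp2, which binds syntaxins in non-neuronal secretory cells, was at 99.4, 95.0, 95.1 and 101 CPM in MaxKO and 80.5, 77.7, 86.1 and 89.6 CPM in Ctrl (log2 fold change 0.23, SE 0.07, adjusted p = 0.0366). Stxbp4, which binds syntaxin 4, was at 45.0, 46.5, 47.4 and 47.0 CPM in MaxKO and 63.2, 54.2, 52.8 and 60.3 CPM in Ctrl (log2 fold change -0.31, SE 0.08, adjusted p = 0.0140). Both of these separated the groups by small amounts. The tomosyn genes Stxbp5 (0.22) and Stxbp5l (-0.09), whose products restrain SNARE assembly, and Stxbp3a (0.01) did not pass.

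Complexins were carried almost wholly by Cplx2, which was at 1797, 1658, 1709.7 and 1753 CPM in MaxKO and 1369, 1414, 1486 and 1667 CPM in Ctrl. Ctrl 4 overlapped the MaxKO range, and the difference did not pass the threshold (log2 fold change 0.22, SE 0.09, adjusted p = 0.0887), although it did in DESeq2 (adjusted p = 0.0198) and against Ctrl 1 and 2 alone (0.31, adjusted p = 0.00144). Cplx1 was at 7.05, 6.70, 8.88 and 9.0 CPM in MaxKO and 14.1, 19.4, 38.4 and 16.8 CPM in Ctrl (log2 fold change -1.48, SE 0.29, adjusted p = 0.00418). All controls were above all knockouts, with Ctrl 3 far above the other controls, and the log2 fold change was -1.08 against Ctrl 1 and 2 alone, and larger and also past the threshold against Ctrl 3 and 4 alone. Cplx2 made up 99.0% ± 0.151 of the complexin per-kilobase level in MaxKO and 96.8% ± 1.54 in Ctrl.

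None of the 6 tested genes for proteins of the vesicle membrane and its coat passed the threshold. Syp was at 181, 164, 175 and 182 CPM in MaxKO and 187, 189, 163 and 174 CPM in Ctrl (log2 fold change -0.02, SE 0.07, adjusted p = 0.866), with the groups interleaved. The synapsin genes Syn1, Syn2 and Syn3, for phosphoproteins that tether vesicles, differed by 0.09, 0.29 and -0.27 on the log2 scale. Sv2a and Sv2b, for vesicle glycoproteins, differed by -0.14 and 0.05. For Sv2b the difference was 0.94 against Ctrl 1 and 2 alone (adjusted p = 4.74e-06) and -0.52 against Ctrl 3 and 4 alone (adjusted p = 0.0101), in opposite directions and both past the threshold. Syn1 and Syn2 passed against Ctrl 1 and 2 alone (0.37 and 0.35, adjusted p = 0.00202 and 0.00314), and Syn3 against Ctrl 3 and 4 alone (-0.55, adjusted p = 0.00847). Per kilobase, Syp was the highest of the group at 67.7 ± 3.11 CPM per kb in MaxKO and 68.7 ± 4.70 CPM per kb in Ctrl.

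Of 5 tested priming genes, 1 was higher. Unc13b, or Munc13-2, which opens syntaxin for SNARE assembly, was at 13.5, 15.5, 14.8 and 14.9 CPM in MaxKO and 11.1, 9.98, 10.5 and 13.7 CPM in Ctrl (log2 fold change 0.37, SE 0.12, adjusted p = 0.0399), and MaxKO 1 lay just below Ctrl 4. Unc13a, or Munc13-1, was at 122, 138, 127 and 149 CPM in MaxKO and 98.2, 106, 109.7 and 132 CPM in Ctrl and did not pass (log2 fold change 0.27, SE 0.10, adjusted p = 0.0730), though it did against Ctrl 1 and 2 alone (0.39, adjusted p = 0.000699). The dense-core granule priming genes Cadps and Cadps2 did not pass. Cadps2 was at 366, 402, 386 and 366 CPM in MaxKO and 358, 298, 254 and 331 CPM in Ctrl (log2 fold change 0.29, SE 0.10, adjusted p = 0.0579), and Cadps at 60.6, 64.9, 62.1 and 63.4 CPM in MaxKO and 74.0, 63.3, 72.3 and 87.7 CPM in Ctrl (log2 fold change -0.25, SE 0.09, adjusted p = 0.0824). Cadps2 passed in DESeq2 (adjusted p = 0.0280), limma-voom (0.0499) and against either pair of controls (0.0385 and 0.0342), and Cadps passed with upper-quartile scaling (0.0436) and against Ctrl 3 and 4 alone (0.0173). Unc13d, which acts in granule release by immune cells, was under 2 CPM in every library (-0.81, adjusted p = 0.0838). Cadps2 made up 70.7% ± 1.37 of the priming genes' per-kilobase level in MaxKO and 66.4% ± 3.64 in Ctrl.

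The RIM genes moved both ways. The long RIM proteins are scaffolds that hold RAB3, Munc13 and calcium channels at release sites. Rims3, for a short RIM, was at 29.5, 38.3, 33.3 and 30.6 CPM in MaxKO and 15.8, 16.7, 17.6 and 26.9 CPM in Ctrl (log2 fold change 0.77, SE 0.16, adjusted p = 0.00508). Rims1 was at 8.19, 9.95, 7.45 and 8.87 CPM in MaxKO and 4.13, 4.27, 5.12 and 7.85 CPM in Ctrl (log2 fold change 0.69, SE 0.20, adjusted p = 0.0286), with Ctrl 4 inside the MaxKO range. Rims4, for another short RIM, had the largest fold change of any tested member, at 0.417, 0.464, 0.542 and 0.383 CPM in MaxKO and 1.71, 1.8, 3.07 and 3.20 CPM in Ctrl (log2 fold change -2.42, SE 0.31, adjusted p = 0.000288). Every control exceeded every knockout, but its level was low in both groups. Rims2, the most abundant RIM transcript, was at 93.0, 90.3, 80.6 and 79.9 CPM in MaxKO and 66.4, 61.3, 76.7 and 82.5 CPM in Ctrl and did not pass (log2 fold change 0.26, SE 0.10, adjusted p = 0.0827), although it did against Ctrl 1 and 2 alone (0.43, adjusted p = 0.000365). Rims2 made up 63.8% ± 2.73 of the RIM per-kilobase level in MaxKO and 69.2% ± 3.33 in Ctrl, and Rims4 made up 0.531% ± 0.0899 in MaxKO and 3.65% ± 0.710 in Ctrl.

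Of the 8 genes for RAB3 proteins and their regulators, all tested, 2 were higher and 2 lower. Rab3d, the RAB3 of granules in exocrine and other secretory cells, was at 95.2, 99.6, 97.0 and 83.0 CPM in MaxKO and 59.8, 62.8, 55.6 and 74.6 CPM in Ctrl (log2 fold change 0.57, SE 0.10, adjusted p = 0.00170). Rab3a, the main RAB3 of synaptic vesicles, was at 45.2, 41.5, 48.6 and 50.5 CPM in MaxKO and 57.3, 67.5, 64.8 and 58.1 CPM in Ctrl (log2 fold change -0.41, SE 0.09, adjusted p = 0.00551). These 2 paralogs moved in opposite directions, each without overlap of the groups. Rab3c, the most abundant of the 8 both in CPM and per kilobase, was at 682, 709, 691 and 574 CPM in MaxKO and 750.1, 674, 543 and 689 CPM in Ctrl (0.00, SE 0.11, adjusted p = 0.999). Rab3gap2, a subunit of the RAB3 GTPase-activating complex, was at 146, 162, 158 and 156 CPM in MaxKO and 127, 135, 103 and 137 CPM in Ctrl (log2 fold change 0.31, SE 0.09, adjusted p = 0.0304), a small rise without overlap. Rab3il1, which encodes an exchange factor for RAB8 that binds RAB3, was at 1.04, 0.863, 0.745 and 1.15 CPM in MaxKO and 2.06, 2.29, 1.98 and 1.57 CPM in Ctrl (log2 fold change -1.04, SE 0.24, adjusted p = 0.00769). Against Ctrl 3 and 4 alone its adjusted p was 0.0514. Rab3b, Rab3ip and Rab3gap1 differed by 0.21, 0.02 and 0.09 on the log2 scale and did not pass.

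The other Rab genes taken in by the symbol pattern held 7 falls, no rise and 3 genes that did not pass, of 10 tested. Over all tested genes 10.9% were higher and 12.2% lower. Among those under 10 CPM on average, as Rab33a, Rab30, Rab36 and Rab37 were, 20.4% were lower. Rab33a, a RAB of post-Golgi vesicles in neurons, was at 0.522, 0.531, 0.610 and 0.893 CPM in MaxKO and 1.91, 2.83, 4.90 and 2.75 CPM in Ctrl (log2 fold change -2.25, SE 0.33, adjusted p = 0.000671). Rab30, a RAB of the Golgi, was at 0.678, 1.06, 0.949 and 0.510 CPM in MaxKO and 2.77, 2.53, 1.76 and 1.46 CPM in Ctrl (log2 fold change -1.42, SE 0.30, adjusted p = 0.00568). Both were low in CPM and separated the groups. Rab34, which acts in cilium formation, was at 32.8, 27.1, 30.7 and 32.3 CPM in MaxKO and 37.6, 40.1, 48.0 and 40.6 CPM in Ctrl (log2 fold change -0.43, SE 0.10, adjusted p = 0.00746), again without overlap. The remaining falls were near the threshold. Rab37, a RAB of secretory granules, was at 5.74, 6.64, 7.99 and 8.04 CPM in MaxKO and 17.6, 14.1, 7.25 and 8.92 CPM in Ctrl (log2 fold change -0.77, SE 0.25, adjusted p = 0.0494), with Ctrl 3 inside the MaxKO range. Rab36 was at 3.91, 3.58, 3.93 and 4.34 CPM in MaxKO and 5.84, 6.38, 4.76 and 4.88 CPM in Ctrl (log2 fold change -0.47, SE 0.16, adjusted p = 0.0462), without overlap. Rab39b, a neuronal RAB, was at 20.6, 18.2, 18.2 and 19.7 CPM in MaxKO and 25.0, 25.1, 21.4 and 21.8 CPM in Ctrl (log2 fold change -0.28, SE 0.09, adjusted p = 0.0451), and Rab33b, a RAB of the Golgi and of autophagy, was at 28.0, 27.0, 28.1 and 22.9 CPM in MaxKO and 35.5, 36.4, 33.4 and 27.3 CPM in Ctrl (log2 fold change -0.32, SE 0.11, adjusted p = 0.0496). Of these, Rab33b overlapped between groups and Rab39b did not. Rab35, the highest of them in mean level per kilobase, was at 66.2, 65.6, 62.9 and 66.0 CPM in MaxKO and 70.5, 71.7, 62.9 and 69.6 CPM in Ctrl (-0.08, adjusted p = 0.479), and Rab31 (-0.14) and Rab32 (-0.08) did not pass.

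**Figure D3:**
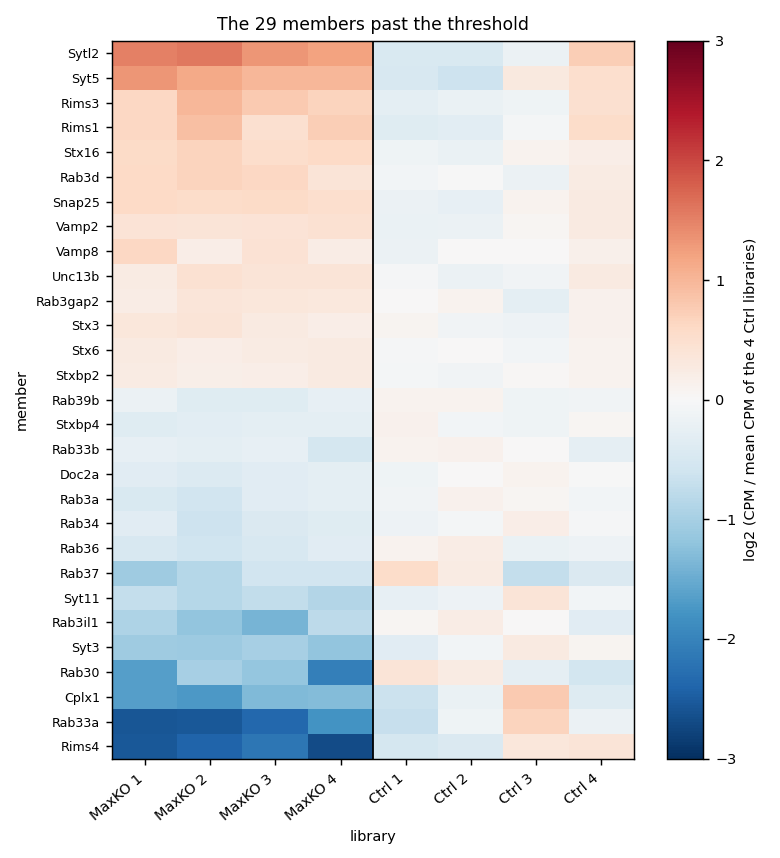
Log2 ratio of the CPM in each library to the mean of the 4 Ctrl libraries for the 29 members past the threshold, ordered by fold change from Sytl2 to Rims4. The 4 MaxKO columns are alike, and Ctrl 4 is the highest of the 4 controls for all 14 rises.

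Ctrl 4 was the highest control for all 14 members that rose. How often this held over all genes that rose is not given here. Reads of all members together made up 0.813% to 0.824% of gene reads in MaxKO. In Ctrl 1 to 4 they made up 0.727%, 0.715%, 0.728% and 0.841%, so Ctrl 4 lay above every MaxKO library. Because Ctrl 1 and 2 were most alike, the 29 called members were also compared with each pair of controls alone, against the same 4 MaxKO libraries. The calls rest on these same libraries, so a kept direction is not separate support. All 29 kept their direction and passed against Ctrl 1 and 2, and 17 passed against Ctrl 3 and 4. The same counts over all called genes are not given here. These counts, and those below without a share of all genes, are therefore not read as a trait of the members. Of the 14 rises, 13 were larger against Ctrl 1 and 2, the exception being Rab3gap2 (0.24 and 0.36). Of the 15 falls, 7 were larger against Ctrl 3 and 4, among them those of Syt11 (-0.60 and -0.97) and Rims4 (-1.95 and -2.79). For Rims1 the values were 1.03 and 0.38 (adjusted p = 0.178 against Ctrl 3 and 4), for Rab37 -1.17 and -0.21 (0.457), for Rab36 -0.63 and -0.30 (0.282), for Rab33b -0.44 and -0.20 (0.280), for Rab39b -0.39 and -0.18 (0.268) and for Stxbp2 0.30 and 0.15 (0.238). Stx3, Stx6, Unc13b, Vamp2, Vamp8 and Rab3il1 also did not pass against Ctrl 3 and 4. Of all 83 tested members, 19 had opposite signs against the 2 pairs, and for Sv2b both values passed. Over all members, 32 rose and 23 fell against Ctrl 1 and 2 (65.5% of 84 tested, beside 44.6% of all genes), and 9 rose and 15 fell against Ctrl 3 and 4 (28.2% of 85 tested, beside 20.7% of all genes).

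**Figure D4:**
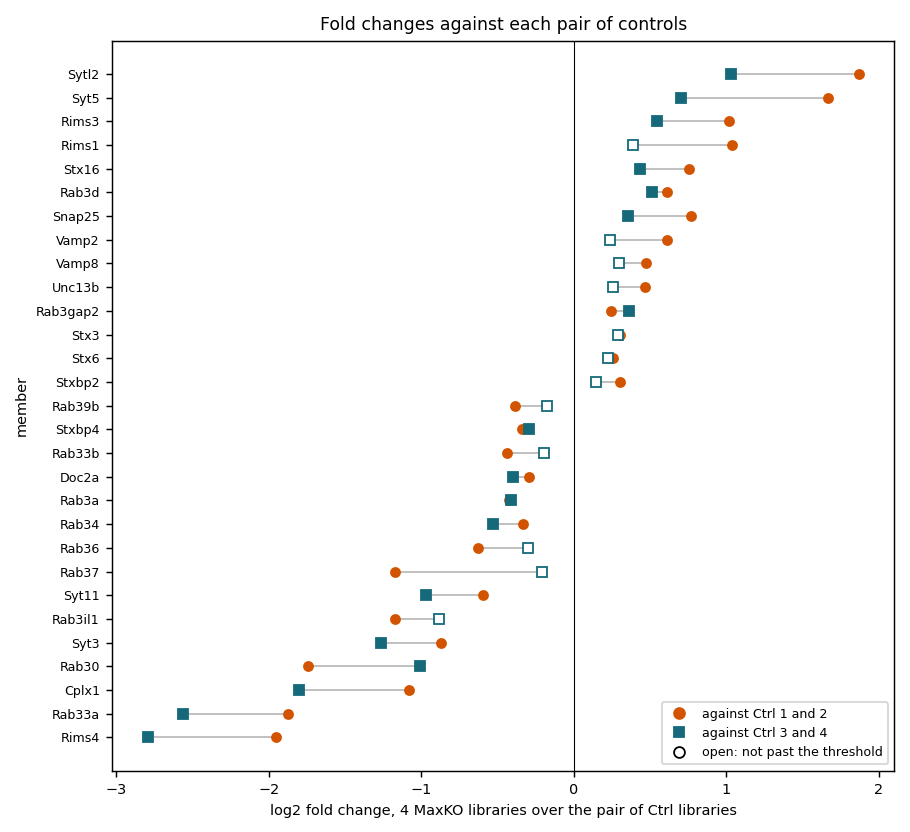
Log2 fold change of the 29 called members, 4 MaxKO libraries over Ctrl 1 and 2 (circles) or Ctrl 3 and 4 (squares), with open symbols for values not past the threshold. The 2 values share their sign for all 29 members, and 12 of the squares are open.

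In the 8 fits that each left out 1 library, 17 of the 29 calls held every time. The share of all called genes that held is not given here, so this count is not read as a trait of the members. Those of Rab36, Rab37, Rab39b, Stx6 and Stxbp2 ended without any 1 MaxKO library, Ctrl 1 or Ctrl 2 (adjusted p up to 0.137, 0.135, 0.132, 0.0791 and 0.138). Those of Rab33b and Unc13b ended also without Ctrl 3 (up to 0.124 and 0.126). The call of Rab3gap2 ended without any 1 MaxKO library or Ctrl 1 (0.0891), that of Rims1 without MaxKO 1, 2 or 4, Ctrl 1 or Ctrl 2 (0.0934) and that of Stx3 without MaxKO 1, 2 or 3 or Ctrl 2 (0.0890). That of Vamp8 ended without MaxKO 1 or 3, Ctrl 1 or Ctrl 2 (0.0905), and that of Vamp2 only without Ctrl 2 (0.0536). No filter on low counts ended those of Rab33b, Rab36, Rab37, Rab39b, Stxbp2 and Unc13b (adjusted p = 0.0545, 0.0724, 0.0800, 0.0719, 0.0565 and 0.0505), DESeq2 that of Rab36 (0.0525) and limma-voom those of Rab33b and Rab37 (0.0587 and 0.0712). The fit that was not robust ended the call of Rab33b (0.0506). Upper-quartile scaling ended the calls of Rab3gap2, Stx6, Stxbp2 and Unc13b (adjusted p = 0.0554, 0.0626, 0.0951 and 0.0690). In the other direction, Cplx2, Rims2, Syt7, Unc13a and Cadps2 passed without Ctrl 4 (adjusted p = 0.0144, 0.0237, 0.00779, 0.0102 and 0.0451), Syt1 and Cadps2 without Ctrl 1 (0.0217 and 0.0237) and Cadps without Ctrl 2 (0.0283).

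The 14 members under the count filter were present at a few reads or none. Syt8 and Vamp7 were listed at 0 in every library, which for Vamp7 is not read as absence because the gene models behind the counts are unknown. Syt6, a synaptotagmin, had 0 reads in every MaxKO library and 5, 5, 39 and 0 reads in Ctrl. Stxbp6, which encodes a SNARE-binding protein, had 11, 10, 6 and 8 reads in MaxKO and 5, 4, 37 and 7 in Ctrl. In both genes Ctrl 3 held most of the control reads. Rab39, Sytl3, Sv2c, Rab38, Cplx3, Stx19, Syt10, Sytl4, Unc13c and Cplx4 had between 0 and 39 reads summed over either group.

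Genes that work beside the members were read from 6 lists of 93 genes in all, of which 87 were tested, 9 were higher and 12 lower (10.3% and 13.8%, near the 10.9% and 12.2% of all tested genes), with a median log2 fold change of 0.04. In the list for SNARE recycling, the exocyst and RAB27, 3 of 15 were higher and none lower. Nsf, the ATPase that takes used SNARE complexes apart, was at 199 ± 5.54 CPM in MaxKO and 158 ± 11.4 CPM in Ctrl (log2 fold change 0.33, SE 0.07, adjusted p = 0.00569), and Exoc6, an exocyst subunit, at 57.5 ± 7.68 CPM in MaxKO and 42.9 ± 5.88 CPM in Ctrl (log2 fold change 0.42, SE 0.12, adjusted p = 0.0218). The call of Exoc6 ended against Ctrl 3 and 4 alone (adjusted p = 0.122) and in 3 of the 8 fits without 1 library. Over all 6 lists the number of rises was 3 to 5 without MaxKO 1, 2 or 3 or Ctrl 2, 16 without Ctrl 4, and 24 and 4 against Ctrl 1 and 2 or Ctrl 3 and 4 alone. Of 13 active zone genes, 2 were higher and 2 lower. The 2 with the smallest p both fell, the neurexin gene Nrxn2, at 17.1 ± 2.19 CPM in MaxKO and 35.9 ± 4.94 CPM in Ctrl (log2 fold change -1.07, SE 0.12, adjusted p = 0.000122), and the liprin gene Ppfia2, at 10.2 ± 1.17 CPM in MaxKO and 21.2 ± 3.94 CPM in Ctrl (log2 fold change -1.06, SE 0.14, adjusted p = 0.000404).

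Of 18 tested genes for other vesicle membrane proteins and transporters, 2 were higher and 4 lower. Syngr2, a synaptogyrin found outside neurons, was at 102 ± 5.37 CPM in MaxKO and 69.9 ± 0.952 CPM in Ctrl (log2 fold change 0.55, SE 0.07, adjusted p = 0.000193). Scamp1, a carrier membrane protein, was at 20.4 ± 2.35 CPM in MaxKO and 37.9 ± 5.92 CPM in Ctrl (log2 fold change -0.89, SE 0.12, adjusted p = 0.000468). Of 9 genes for dense-core granule processing, 3 were lower (33.3%, beside 12.2% of all tested genes) and none higher, with a median of -0.22 on the log2 scale. Against Ctrl 1 and 2 alone, Cpe, Ptprn, Pam and the called gene Resp18 were at -0.36, -0.69, -0.31 and -0.85. Against Ctrl 3 and 4 alone they were at -0.06, -0.09, -0.08 and -0.13, none past the threshold. The other 2 called genes, Scg5 and Pcsk1n, passed against either pair. Scg5, the chaperone of the prohormone convertase PCSK2, was at 99.8 ± 3.10 CPM in MaxKO and 125 ± 4.84 CPM in Ctrl (log2 fold change -0.33, SE 0.06, adjusted p = 0.00345), and Pcsk1n, an inhibitor of PCSK1, at 78.9 ± 12.1 CPM in MaxKO and 114 ± 14.9 CPM in Ctrl (log2 fold change -0.53, SE 0.12, adjusted p = 0.00729). Of 13 other SNARE genes, Bet1 of the Golgi was higher (log2 fold change 0.38, SE 0.09, adjusted p = 0.00764) and Sec22c of the endoplasmic reticulum lower (log2 fold change -0.34, SE 0.08, adjusted p = 0.00754). Of 19 endocytosis genes, 1 was higher, the phosphatase gene Synj2 (log2 fold change 0.40, SE 0.11, adjusted p = 0.0251, called in 4 of 8 fits without 1 library), and 2 were lower, among them the syndapin gene Pacsin3 (log2 fold change -0.55, SE 0.16, adjusted p = 0.0251, called in 5 of 8).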

How the data were processed

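The authors' RNA-seq counts, 1 per gene symbol and library, were used as deposited. Per the labels' protocols, the RNA was a TRIZOL extract and the library kit was NEB Ultra RNA. Per the submitters' processing notes, the tools were bcl2fastq 1.8.4, TopHat2 2.0.12 and HTSeq 0.6.1 and the build was mm9. Neither annotation nor strand setting is known, so overlapping and antisense genes may share reads, and close paralogs may lose reads that align to several places. Rows that name no gene were left out.

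The members and the lists of related and marker genes were chosen with earlier results of these data known. Genes were kept with filterByExpr, scaled with TMM and compared in R 4.3.3 with edgeR 4.0.16 (glmQLFit with robust = TRUE, quasi-likelihood F test, all 8 libraries, no covariate). P-values were adjusted by Benjamini-Hochberg over all 13358 tested genes, with a threshold of 0.05. CPM values use the TMM-scaled library sizes, except the marker genes and sums, which use plain totals. The SE is the log2 fold change divided by the square root of F. The fit was tested on simulated data. Members were named if called and averaging 0 or more in log2 CPM, if in a list of core genes, or if the most abundant of their role group. Up to 2 related genes per list were named by smallest p. Unc13d, Sytl1, Syt6, Stxbp6 and the related genes Cpe, Ptprn and Pam were named after their values were seen. So were members given with a log2 fold change only. The values of 1 member and of 1 marker gene are not reported here.

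Levels per kilobase divide CPM by merged exon length in GENCODE M21, a GRCm38 annotation, for 82 of the 83 tested members, and are approximate for mm9 counts. Promoter sequences are from RefSeq on GRCm38.p6, matched by symbol. Alternatives were a filter of 1 CPM in 4 libraries or none, scaling by RLE or the upper quartile, DESeq2 1.42.0, limma-voom (limma 3.58.1), a fit that is not robust, a replicate block, each library left out, and each control pair alone.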

Additional observations from a re-analysis of the deposited data

Results flagged for a closer look

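In each group of 4 libraries, the most extreme value of each of the named members was compared with the others by Dixon's test. Over 82 such groups chance alone flags about 4.1, or 1 in 20, and 4 values stood apart. In MaxKO, library 3 read 26.3 CPM for Stx1a, against 31.4 CPM in the nearest MaxKO library, and library 4 read 452 CPM for Syt7, against 429 CPM. In Ctrl, library 4 read 26.9 CPM for Rims3, against 17.6 CPM in the nearest control, and 3.31 CPM for Sytl2, against 1.76 CPM.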

How the results depend on the processing

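Against Ctrl 1 and 2 alone, 32 members were higher and 23 lower, with 2987 and 3081 over all genes and 24 related genes higher. Against Ctrl 3 and 4 alone, 9 members and 4 related genes were higher. With each library left out in turn, 7 to 27 members were higher and 11 to 18 lower, 963 to 1846 genes were higher and 1139 to 1929 lower, and 3 to 16 related genes were higher and 8 to 17 lower. Among the named members, 4 reversed their sign, none of them past the threshold in the fit to all libraries. Rab3c was at 0.0052 with no filter, 0.0076 in limma-voom, 0.0045 with the replicate block and 0.10 against Ctrl 3 and 4, and -0.084 to 0.057 with a library left out. Stx1a was at -0.022 with upper-quartile scaling, -0.20 against Ctrl 3 and 4, and -0.092 to 0.15 with a library left out. Syp was at 0.051 against Ctrl 3 and 4 and -0.063 to 0.010 with a library left out, and Snap23 at 0.11 against Ctrl 3 and 4. The causes were not tested. Of 738 values of named members under an alternative, 600 kept their direction and side of the threshold. Same-numbered MaxKO and Ctrl libraries did not deviate together (correlations -0.20, -0.01, 0.00 and -0.11). Libraries with different numbers gave values as large, such as 0.20 for Ctrl 3 with MaxKO 1 and -0.22 for Ctrl 3 with MaxKO 2. Whether same-numbered libraries share a batch cannot be told from these values. With the replicate block, 13 members were higher and 12 lower, with 1208 and 1324 over all genes and 7 and 9 related genes. The replicate block ended the calls of Rab36, Rab37, Rab39b, Stx3, Stx6, Stxbp2, Unc13b and Vamp8 (adjusted p = 0.0560 to 0.115), and Syt1 and Unc13a passed with it (0.0487 and 0.0391).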

Other observations

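A pair of members differed widely among the 4 controls, and they were chosen after their values were seen. Syt4, a synaptotagmin of dense-core vesicles, was at 5.79, 6.5, 8.6 and 6.76 CPM in MaxKO and 17.2, 14.3, 8.56 and 4.99 CPM in Ctrl. Its log2 fold change was -1.20 against Ctrl 1 and 2 alone (edgeR adjusted p = 1.88e-06) and 0.03 against Ctrl 3 and 4 alone. Sv2b, a vesicle glycoprotein gene, was at 17.0, 19.5, 17.4 and 15.8 CPM in MaxKO and 9.36, 8.78, 27.7 and 22.2 CPM in Ctrl, with Ctrl 3 and 4 above and Ctrl 1 and 2 below all 4 MaxKO libraries.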
